A study of Mus musculus with 6 samples.

Results

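The 34 genes described here carry out and control the synthesis, uptake and efflux of cholesterol in RAW264.7 cells, a mouse macrophage line. They were taken by gene symbol from a fixed list of names, and all 34 were among the 40773 symbols of the count table. No measured value entered that rule, but the list was chosen with earlier results of these data known. After a filter on low counts 32 remained for testing, of 11498 genes tested in all. RNA was sequenced from 3 cultures that received the MMP14-neutralizing antibody 3A2 (50 µg/mL) on top of bacterial lipopolysaccharide (LPS, 100 ng/mL), and from 3 cultures with that dose of LPS alone, all for 24 h. Both groups therefore carried LPS, all cultures were of a single unmodified line, and cells without LPS or with a control antibody were not analysed here. MMP14 is a membrane-bound protease of the cell surface. The comparison asks what adding 3A2 did to the transcriptome of LPS-treated macrophages. In it, neutralization of MMP14 cannot be told apart from the presence of an antibody.

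Animal cells build cholesterol from acetyl-CoA through mevalonate and isoprenoids to squalene, which is closed into lanosterol and trimmed to cholesterol. When membranes of the endoplasmic reticulum are short of sterol, the transcription factor SREBP2 (encoded by Srebf2) leaves the retention protein Insig1 together with its escort Scap, is cut free and induces most genes of this route. When sterol is plentiful, oxysterols and pathway intermediates activate the nuclear receptors LXR alpha and LXR beta (Nr1h3 and Nr1h2), which induce the exporters Abca1 and Abcg1, lipoprotein components and Mylip, a ubiquitin ligase that removes lipoprotein receptors. Macrophages take up much lipoprotein cholesterol, and the balance of both programmes is known to shape foam cell formation and inflammatory output.

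Promoters of 3 members are shown first, and their relation to the values that follow was not tested. They are RefSeq windows of GRCm38.p6, from 250 bases before to 50 after an annotated start, read 5′ to 3′ on the gene's strand. Msmo1 and Pltp had the smallest p of the synthesis and uptake genes and of the efflux genes. Hmgcs1 was added after its letters were seen. Capitals mark CCAAT in either orientation, the letters bound by NF-Y, a factor known to assist SREBP2, and in Hmgcs1 also TCACCCCAC.
Msmo1 (chr8:64733529-64733828, minus strand): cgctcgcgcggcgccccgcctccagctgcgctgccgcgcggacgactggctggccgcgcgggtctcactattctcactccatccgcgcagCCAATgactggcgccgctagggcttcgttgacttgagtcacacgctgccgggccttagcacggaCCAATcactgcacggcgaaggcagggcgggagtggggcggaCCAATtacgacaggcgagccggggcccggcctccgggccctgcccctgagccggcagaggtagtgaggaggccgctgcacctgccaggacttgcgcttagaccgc
Hmgcs1 (chr13:119690101-119690400, plus strand): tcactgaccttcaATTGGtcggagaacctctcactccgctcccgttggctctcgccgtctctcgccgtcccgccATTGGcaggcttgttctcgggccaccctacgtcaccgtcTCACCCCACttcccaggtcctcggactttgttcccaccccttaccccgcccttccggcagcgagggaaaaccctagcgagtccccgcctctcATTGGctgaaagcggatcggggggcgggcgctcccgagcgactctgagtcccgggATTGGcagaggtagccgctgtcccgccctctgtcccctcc
Pltp (chr2:164857659-164857958, minus strand): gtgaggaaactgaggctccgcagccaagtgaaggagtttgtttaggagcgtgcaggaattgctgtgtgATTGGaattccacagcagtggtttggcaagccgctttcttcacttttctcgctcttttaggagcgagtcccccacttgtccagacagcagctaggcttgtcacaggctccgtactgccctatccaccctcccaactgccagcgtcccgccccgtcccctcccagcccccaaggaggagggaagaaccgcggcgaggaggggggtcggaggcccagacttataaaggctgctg
In Msmo1 the letters CCAAT stood 3 times, each in the forward orientation. In Hmgcs1 they stood 4 times in reverse, and in Pltp a single time in reverse.

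Windows were listed for 18 of the 23 synthesis and uptake genes, 21 windows in all, and for none of Fdps, Fdft1, Sqle, Stard4 and Npc1. CCAAT on either strand was present in 17 of those 21 windows (81%), against 12289 of all 32851 promoter windows (37.4%). At least 1 window of 17 genes held it, Acat2 being the single gene with a window and no match. Among efflux genes and LXR targets 4 of 13 windows held CCAAT (30.8%), those of Lpcat3, Mylip, Pltp and Soat1. The core of the sterol regulatory element bound by SREBP2, searched as TCACNCCAC on both strands, was found in 1 of the 21 synthesis windows (4.76%), that of Hmgcs1 (where it overlapped no CCAAT), in 0 of the 13 efflux windows, and in 408 of all windows (1.24%). The DR4 element of LXR was searched on both strands as AGGTCA written 2 times with 4 bases between the copies, with at most 1 mismatch in each copy. It stood in 0 member windows and in 575 of all windows (1.75%). The sterol element was searched with no mismatch, unlike DR4, so windows with variants of it were not counted. These letters describe short windows and are not binding data.

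No cholesterol gene was called different with 3A2. None of the 32 tested genes passed in either direction at an adjusted p under 0.05 by edgeR's quasi-likelihood test, where 0% of all genes tested passed as higher and 0% as lower, and the smallest adjusted p of a cholesterol gene was 0.719. DESeq2 and limma-voom on the same genes called 0 as well. On the log2 scale 17 of the 32 lay above 0 and 15 below, and their median was 0.034, against 0.0017 over all genes tested. Fold changes of LPS plus 3A2 over LPS ran from 0.808 to 1.29. The median size of a log2 fold change, sign aside, was 0.0946 for cholesterol genes and 0.095 for all genes. For 28 of 32 genes the 95% interval lay within 1.5-fold in either direction (87.5%, against 79.6% of all genes), and for 11 it lay within 1.25-fold (34.4%, against 42.8%).

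**Figure D1:**
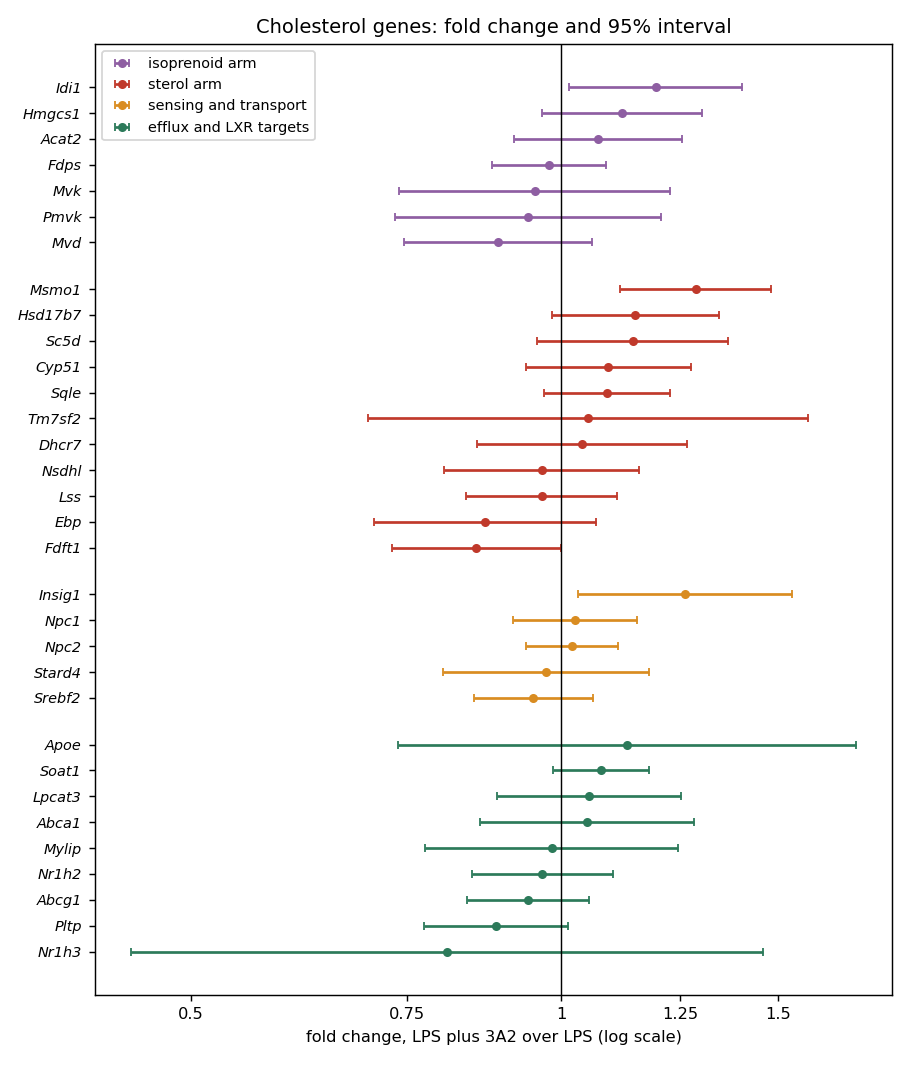
Fold change of LPS plus 3A2 over LPS (x axis, log scale) for the 32 tested cholesterol genes, by role, with points for edgeR estimates and bars for 95% intervals. Estimates lie on both sides of 1 in every role, from 0.808 for Nr1h3 to 1.29 for Msmo1.

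At an unadjusted p under 0.05 there were 3 cholesterol genes on the higher side (Msmo1, Insig1 and Idi1) and 1 on the lower side (Fdft1), all of them from synthesis and its control. Fdft1 did not reach that p with DESeq2, with DESeq2 size factors, with totals that leave out mitochondrial and the 20 most abundant genes, without a filter, with the replicate block or with mitochondrial mRNA as a covariate, where 0 cholesterol genes were on the lower side. Across all genes 3.43% were higher and 3.09% lower at that p. The higher side varied too, with 1 cholesterol gene at that p with DESeq2 and 2 with the covariate. Without a library in turn, 1 to 4 were on the higher side. The shares of all genes at these other settings are not given. All 3 libraries with LPS plus 3A2 lay above all 3 with LPS alone for 5 cholesterol genes and below them for 2, where 5.84% of all genes lay above and 6.46% below. The 5 were Msmo1, Idi1, Sqle, Hsd17b7 and Soat1, and the 2 were Fdft1 and Pltp.

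The enzymes of the isoprenoid arm, from acetyl-CoA to farnesyl diphosphate, had 3 of 7 members above 0 and 4 below, and their median log2 fold change was -0.033. Idi1, which isomerizes isopentenyl diphosphate, measured 44.1, 45.4 and 61.3 CPM (read counts scaled to a common library size and composition) with LPS plus 3A2, against 41.3, 41.7 and 43.1 CPM with LPS alone. The libraries with 3A2 were all above the others, 2 of them by little and replicate 3 by far more. The fold change was 1.19 (95% interval 1.01 to 1.40, adjusted p = 0.748), a log2 fold change of 0.26 that came to 0.091 without LPS plus 3A2 replicate 3. Hmgcs1, the synthase at the entry to the mevalonate route and the gene whose promoter held the sterol element, had 44.3, 47.4 and 58.1 CPM with LPS plus 3A2, and 46.0, 45.6 and 41.8 CPM with LPS. Again replicate 3 with 3A2 was highest and the groups overlapped. Its log2 fold change of 0.17 came to 0.044 without that library.

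Fdps, the farnesyl diphosphate synthase and the most abundant enzyme of this arm per transcript length, measured 119, 127 and 112 CPM with LPS plus 3A2 and 117, 127 and 123 CPM with LPS. The groups overlapped and its fold change was 0.977 (95% interval 0.878 to 1.09). The kinases Mvk and Pmvk stood at 0.952-fold (0.739 to 1.23) and 0.940-fold (0.732 to 1.21), and the decarboxylase Mvd at 0.889-fold (0.745 to 1.06). Acat2, a cytosolic thiolase that condenses acetyl-CoA, stood at 1.07-fold (0.916 to 1.25). Summed over the arm, levels were 282, 302 and 302 CPM with LPS plus 3A2 and 280.4, 294 and 287 CPM with LPS.

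The sterol arm, from squalene to cholesterol, had 7 of 11 members above 0 and 4 below, and their median log2 fold change was 0.073. Msmo1, the methylsterol oxidase, measured 44.9, 43.1 and 49.6 CPM with LPS plus 3A2, against 36.2, 33.8 and 37.0 CPM with LPS. The counts behind these values were 277, 280 and 297 with 3A2 and 247, 253 and 241 with LPS. No library of either group reached into the range of the other. By edgeR's test its log2 fold change of 0.36 (SE 0.098, adjusted p = 0.719) stayed between 0.27 and 0.41 in 14 alternative fits, none of which called it, at adjusted p values of 0.0806 to 0.999.

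Sqle, the squalene epoxidase and a rate-limiting step, is the most abundant gene of this arm per transcript length. It had 64.4, 62.3 and 68.1 CPM with LPS plus 3A2 and 58.9, 59.5 and 60.3 CPM with LPS. The libraries did not overlap, and the fold change was 1.09 (95% interval 0.969 to 1.23, adjusted p = 0.810). Hsd17b7, a sterol ketoreductase that works in the same demethylation complex as Msmo1, measured 32.8, 28.9 and 33.2 CPM with LPS plus 3A2, against 27.1, 28.0 and 27.5 CPM with LPS. These groups did not overlap either, at 1.15-fold (0.983 to 1.34, adjusted p = 0.761). Nsdhl, the dehydrogenase of that complex, stood at 0.964-fold (0.803 to 1.16).

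Fdft1, the squalene synthase at the head of the arm, had the opposite sign. It measured 31.0, 32.9 and 26.4 CPM with LPS plus 3A2 and 33.8, 35.2 and 37.0 CPM with LPS. All libraries with 3A2 were below the others, with replicate 3 the lowest. By edgeR's test the fold change was 0.853 (95% interval 0.728 to 1.00, adjusted p = 0.748), and the log2 fold change of -0.23 came to -0.14 without LPS plus 3A2 replicate 3. In the mouse annotation Fdft1 shares 774 exon bases with Ctsb on the opposite strand, and the strand setting of the counting is not given in the sources used here, so reads of the pair may not be told apart. In total, 9 of the 34 genes share exon bases with a gene on the opposite strand and 4 with a gene on their own strand. Those 4 include Fdps, which shares 1124 bases with Gm43738, and Tm7sf2, which shares 532 with Vps51, so the levels of both are uncertain by what the counting gave to the partner.

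Of the remaining sterol enzymes, Cyp51, the lanosterol demethylase, stood at 1.09-fold (95% interval 0.936 to 1.27), Sc5d, a sterol desaturase, at 1.14-fold (0.957 to 1.37), and Dhcr7, which makes cholesterol in the last step, at 1.04-fold (0.854 to 1.27). The cyclase Lss stood at 0.964-fold (0.837 to 1.11) and the isomerase Ebp at 0.867-fold (0.705 to 1.07). The sterol reductase Tm7sf2 stood at 1.05-fold on 18 to 25 counts with LPS plus 3A2 and 19 to 29 with LPS, and its 95% interval was accordingly wide (0.697 to 1.59). Summed over the arm, levels were 333, 331 and 349.6 CPM with LPS plus 3A2 and 309, 323 and 329 CPM with LPS. Without Msmo1 the sums were 288, 288 and 300.02 CPM with 3A2 and 273, 289 and 292 CPM with LPS, so the groups overlapped.

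Genes of sterol sensing and transport had 3 of 5 members above 0, and their median log2 fold change was 0.030. Srebf2, the transcription factor of the pathway, measured 120.2, 124 and 106 CPM with LPS plus 3A2 and 117, 122 and 130.2 CPM with LPS. The groups overlapped, at 0.949-fold (95% interval 0.849 to 1.06). Its partner Insig1, itself a target of SREBP2, had 21.6, 26.9 and 22.0 CPM with LPS plus 3A2, against 17.3, 21.9 and 16.6 CPM with LPS. Here LPS replicate 2 reached into the range of the libraries with 3A2. By edgeR's test the fold change was 1.26 (1.03 to 1.54, adjusted p = 0.734), and the log2 fold change of 0.33 came to 0.22 without LPS plus 3A2 replicate 2.

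Stard4, a soluble sterol carrier of the cytosol, stood at 0.972-fold (0.801 to 1.18). Npc2, the lysosomal protein that lifts cholesterol from digested lipoproteins, was the most abundant of the 34 genes per transcript length. It measured 552, 607 and 565 CPM with LPS plus 3A2 and 556, 572 and 561 CPM with LPS, at 1.02-fold (95% interval 0.937 to 1.11). Npc1, the membrane protein that receives cholesterol from Npc2, stood at 1.03-fold (0.914 to 1.15). The groups overlapped for both, and the interval of Npc2 was the narrowest of the 32.

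**Figure D2:**
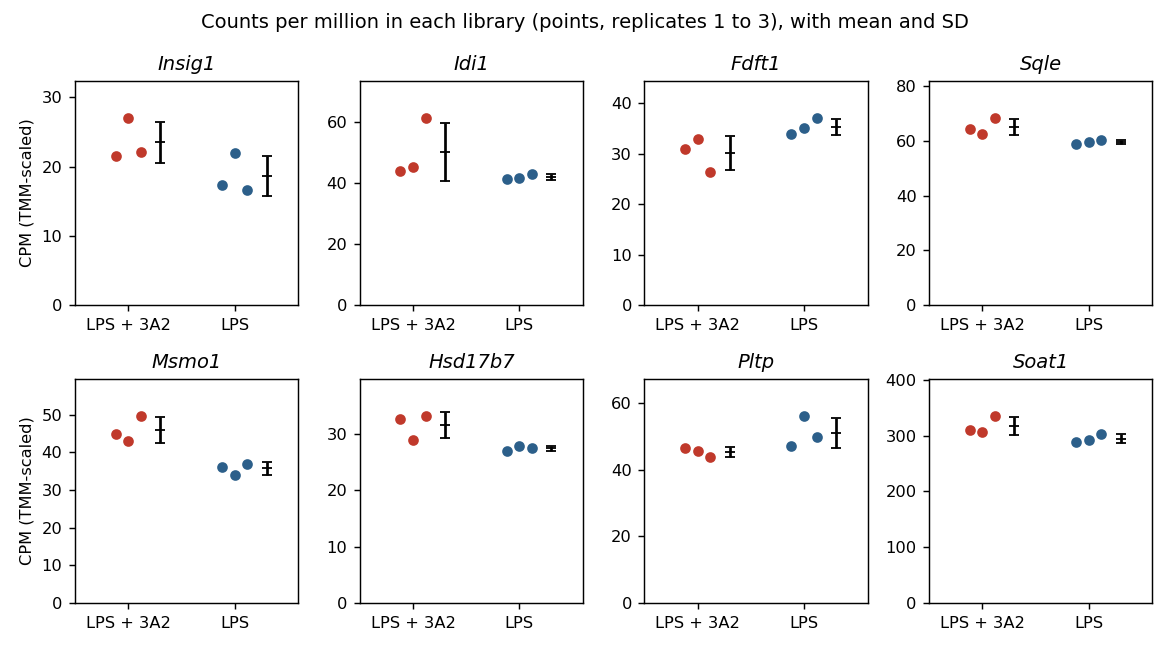
CPM (y axis, from 0) in each library for the 8 cholesterol genes with an unadjusted p under 0.05 or with groups that do not overlap, as points for LPS plus 3A2 and LPS, with mean and SD (n = 3 each) beside them. Libraries of Insig1 overlap between the groups, and Idi1 shows 1 library with 3A2, at 61.3 CPM, far above the other 2.

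Efflux genes and LXR targets had 4 of 9 tested members above 0 and 5 below, a median of -0.026 and 0 members at an unadjusted p under 0.05. The 23 synthesis and uptake genes had 13 above 0 and 10 below, with a median of 0.037. Both medians were near 0 and changed sign in some fits, to 0.037 for efflux genes with mitochondrial mRNA as a covariate and to -0.012 for synthesis and uptake genes without LPS plus 3A2 replicate 2. The exporter Abca1, which loads lipid-poor apolipoprotein, measured 17.9, 24.2 and 19.5 CPM with LPS plus 3A2 and 21.2, 17.5 and 20.1 CPM with LPS. Abcg1, which feeds high-density lipoprotein, had 73.7, 79.0 and 74.3 CPM with LPS plus 3A2 and 76.2, 85.8 and 79.4 CPM with LPS. Both pairs of groups overlapped. The fold changes were 1.05 (95% interval 0.859 to 1.28) for Abca1 and 0.940 (0.839 to 1.05) for Abcg1.

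Of the receptors, Nr1h2 (LXR beta) stood at 0.966-fold (0.846 to 1.10). Nr1h3 (LXR alpha) had 12, 8 and 6 counts with LPS plus 3A2 and 12 in each LPS library, and its interval of 0.447 to 1.46 was the widest among the 32 on the log scale. Per transcript length Nr1h3 averaged 0.713 CPM per kb with LPS plus 3A2 and 0.888 CPM per kb with LPS. Nr1h2 averaged 24.3 and 25.2 CPM per kb in the same groups, so that the beta form was the more abundant LXR mRNA in every library.

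Pltp, a phospholipid transfer protein of plasma and an LXR target, had the smallest p of the efflux genes. It measured 46.7, 45.6 and 43.7 CPM with LPS plus 3A2, against 47.3, 56.2 and 50.1 CPM with LPS. The groups did not overlap, though the highest library with 3A2 and the lowest with LPS were close. The fold change was 0.885 (95% interval 0.773 to 1.01, adjusted p = 0.759), and the log2 fold change of -0.18 came to -0.10 without LPS replicate 2. Pltp shares 495 exon bases with Ctsa on the opposite strand. Soat1, which esterifies cholesterol for storage in droplets rather than exporting it, was the most abundant gene of this list per transcript length. It had 309.6, 307 and 335 CPM with LPS plus 3A2 and 288, 292 and 304 CPM with LPS, without overlap, at 1.08-fold (0.984 to 1.18, adjusted p = 0.788). Its log2 fold change of 0.11 came to 0.067 without LPS plus 3A2 replicate 3.

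Lpcat3, which remodels membrane phospholipids, stood at 1.05-fold (95% interval 0.887 to 1.25), and Mylip at 0.982-fold (0.776 to 1.24). Apoe, the apolipoprotein E gene that macrophages secrete strongly in many settings, was near the lower end here, with 15, 25 and 23 counts with LPS plus 3A2 and 20, 21 and 21 with LPS. Its interval ran from 0.737 to 1.74. Apoc2, a cofactor of lipoprotein lipase, had 2 counts in LPS plus 3A2 replicate 3 and 0 in the other 5 libraries. It shares 646 exon bases with Gm44805 on its own strand, and its principal transcript has 727 bases. Its level is therefore also uncertain by what the counting gave to that partner. Ch25h, a hydroxylase that makes an oxysterol in activated macrophages, had 1 count in LPS replicate 3 and 0 elsewhere. A count of 0 allows 3 counts, or 0.404 to 0.495 CPM in a library (counting error only), so a difference below about that level in either gene was not detectable at this depth.

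**Figure D3:**
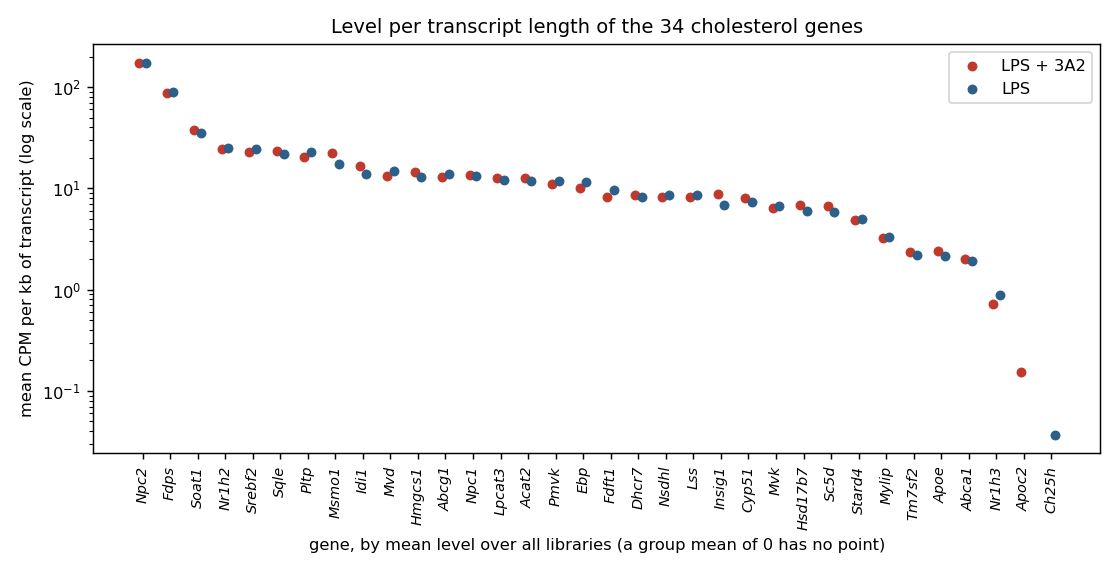
Mean level of the 34 genes in CPM per kb of transcript (y axis, log scale), ordered by the mean of all libraries, as points for LPS plus 3A2 and LPS. Levels span from Npc2, at 174 and 171 CPM per kb, down to Apoc2 and Ch25h, which have no point where a group mean is 0.

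Set in order by level per kb of the annotated principal transcript, Npc2, Fdps and Soat1 led, with medians over the 6 libraries of 171, 87.7 and 36.5 CPM per kb. Each of these was apart from its neighbours in every library. Below them Nr1h2, Srebf2, Sqle, Pltp and Msmo1 followed at medians of 25.0, 23.9, 22.2, 21.1 and 19.6 CPM per kb, and their libraries overlapped from each to the next. Most synthesis enzymes lay close together: from Idi1 at 14.4 to Stard4 at 5.10 CPM per kb every neighbour overlapped the next. Mylip (3.27), Tm7sf2 (2.18), Apoe (2.19) and Abca1 (1.93) came after them, Mylip apart from both its neighbours and the other 3 overlapping in turn. Of the 33 steps in this order 26 joined genes whose libraries overlapped. Which transcripts the cells used was not determined, so these levels rest on annotated lengths.

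Libraries differed among themselves, also within each group. Totals were 6060732 to 7432553 counts, and cholesterol genes took 0.190% to 0.202% of them. Of the 23 synthesis and uptake genes, 12, 18 and 12 were above their own mean over all libraries in the LPS plus 3A2 libraries, and 4, 12 and 10 in those with LPS. The median deviation from that mean was 0.005, 0.050 and 0.030 on the log2 scale with LPS plus 3A2 and -0.042, 0.0081 and -0.019 with LPS. LPS plus 3A2 replicate 3 stood apart in its mitochondrial mRNAs, whose mean deviation was 0.45, against 0.11 and -0.14 in its replicates and -0.043, -0.17 and -0.21 with LPS. Of the 32 tested genes 10 were highest and 10 lowest in that same library. The 10 highest were Idi1, Hmgcs1, Msmo1, Sqle, Cyp51, Sc5d, Hsd17b7, Soat1, Npc1 and Lpcat3, and the 10 lowest were Fdft1, Pltp, Srebf2, Fdps, Mvk, Nsdhl, Ebp, Nr1h2, Nr1h3 and Mylip. The other 2 libraries with 3A2 were highest for 2 and 8 genes and lowest for 7 and 2, and the LPS libraries were highest for 1, 7 and 4 and lowest for 5, 4 and 4. The part of its composition in these values was not tested. With mitochondrial mRNA as a covariate the log2 fold change was 0.27 for Msmo1, 0.47 for Insig1, 0.047 for Idi1 and -0.078 for Fdft1. All 13 mitochondrial mRNAs had estimates above 0 with 3A2, as 50.4% of all genes tested did. Their median log2 fold change was 0.267, and 0 passed in either direction. The covariate was thus partly aligned with the treatment, so that fit can also take out a part of a treatment difference.

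**Figure D4:**
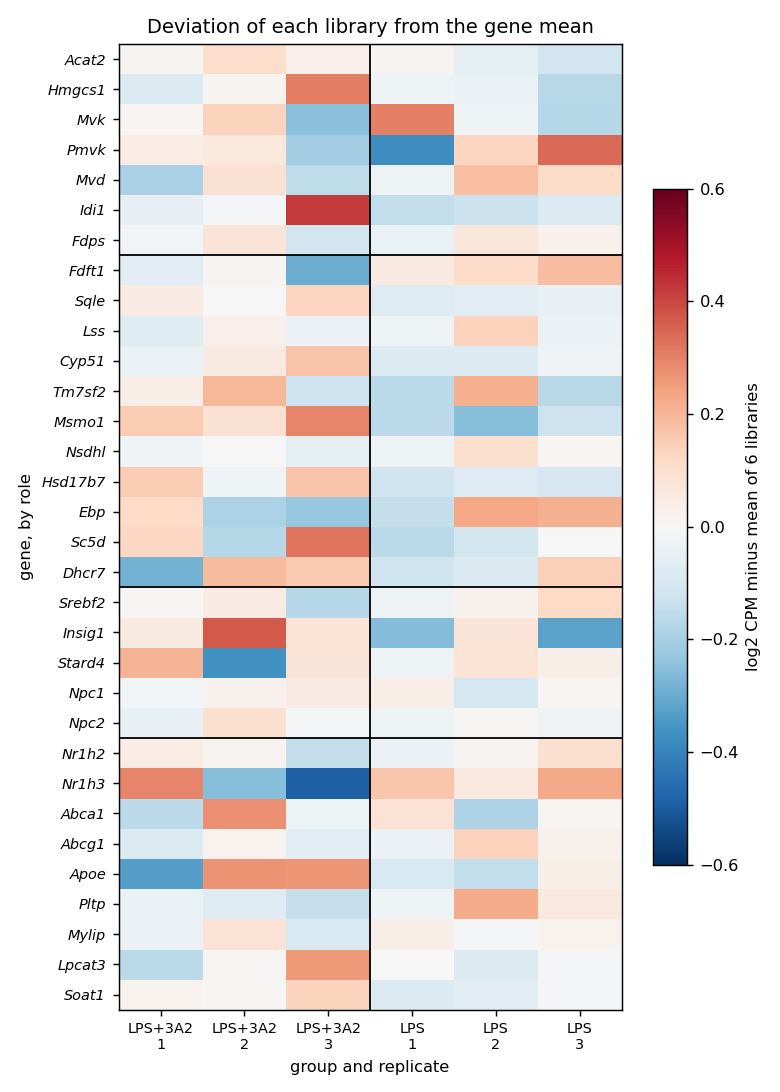
Deviation of each library's log2 CPM from the gene's mean over 6 libraries (colour) for 32 cholesterol genes (rows, by role) and 6 libraries (columns, LPS plus 3A2 left of LPS). Msmo1 is above its mean in all 3 libraries with 3A2 and below it in all 3 with LPS, while Idi1, Hmgcs1 and Sc5d are strongest in LPS plus 3A2 replicate 3.

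The cells carried macrophage markers, summing over 8 genes to 6161 to 6595 CPM with LPS plus 3A2 and 7066 to 7132 CPM with LPS, none at 0. The most abundant of them, Lyz2, averaged 3779.5 ± 125 CPM with LPS plus 3A2 and 4337 ± 69.5 CPM with LPS (SD, n = 3 each, adjusted p = 0.719). By edgeR's test Csf1r, the receptor for macrophage colony-stimulating factor, stood at 0.878-fold (adjusted p = 0.719) and the integrin Itgam at 0.942-fold (adjusted p = 0.812). The groups did not overlap for any of these 3, as for 6.46% of all genes on the lower side. They overlapped for the other markers, with Cd68 at 0.988-fold, Cd14 at 0.981-fold, Ptprc at 0.970-fold, Fcgr1 at 0.923-fold and Adgre1 at 1.03-fold. The part of this in the cholesterol values was not tested. All 4 epithelial markers were at 0 in every library. Markers of fibroblasts and adipocytes came to 0.167 to 0.325 CPM with LPS plus 3A2 and 0.307 to 0.439 CPM with LPS (Col1a2 and Adipoq at 0), and those of hepatocytes stayed at or below 0.307 CPM (Ttr at 0). Neutrophil and dendritic cell markers summed to 5.70 to 6.51 CPM with LPS plus 3A2 and 5.83 to 7.76 CPM with LPS, with S100a9 and Flt3 at 0. Nearly all of that sum was S100a8, at 5.70 to 6.51 CPM with LPS plus 3A2 and 5.83 to 7.47 CPM with LPS. Xcr1 had at most 2 counts in a library. In bulk RNA, fewer cells of a type and less RNA per cell cannot be told apart.

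A further 35 genes around the same pathways were read from the same fit. Of these 30 were tested, 12 above 0 and 18 below, with a median of -0.040 on the log2 scale, and 0 passed in either direction. At an unadjusted p under 0.05 there were 2 on the higher side (Mbtps2 and Cd36) and 2 on the lower (Lrp1 and Gramd1a), where 3.43% of all genes were higher and 3.09% lower. Mbtps2, a protease that releases SREBP2, measured 53.6, 48.0 and 66.8 CPM with LPS plus 3A2 and 46.7, 48.8 and 44.8 CPM with LPS, again highest in LPS plus 3A2 replicate 3. Its groups overlapped, at 1.20-fold (95% interval 1.02 to 1.40, adjusted p = 0.734). Of 13 genes of sterol sensing and synthesis 8 lay above 0, and the most abundant per length, the sterol reductase Lbr, stood at 1.05-fold (95% interval 0.951 to 1.17).

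Among 10 tested genes of uptake and intracellular transport 4 lay above 0 and 6 below. Gramd1a, which carries accessible cholesterol from the plasma membrane to the endoplasmic reticulum, had 55.3, 51.7 and 52.8 CPM with LPS plus 3A2 and 61.8, 64.4 and 61.3 CPM with LPS. The groups did not overlap, at 0.852-fold (95% interval 0.756 to 0.961, adjusted p = 0.719). The scavenger receptor Cd36 averaged 210.3 CPM per kb with LPS plus 3A2 and 179.5 CPM per kb with LPS, and another one, Msr1, averaged 189 CPM per kb with LPS plus 3A2 and 196 CPM per kb with LPS, so that Cd36 led the list with 3A2 and Msr1 with LPS. Cd36 measured 707, 620 and 817 CPM with LPS plus 3A2 and 628, 619 and 585 CPM with LPS. LPS replicate 1 was above LPS plus 3A2 replicate 2, and the fold change was 1.17 (95% interval 1.04 to 1.31, adjusted p = 0.719). Nceh1, which hydrolyses stored cholesterol esters, was higher with 3A2 without overlap, at 53.6, 57.1 and 66.3 CPM with LPS plus 3A2 and 53.3, 53.1 and 50.7 CPM with LPS. Its lowest library with 3A2 and highest with LPS were close, and the fold change was 1.13 (95% interval 0.984 to 1.29). The endocytic receptor Lrp1 had 999.8, 1072 and 873 CPM with LPS plus 3A2 and 1038, 1079 and 1138 CPM with LPS, at 0.905-fold (0.819 to 0.999, adjusted p = 0.748). Of the other genes of efflux and LXR control 7 were tested and all 7 had estimates below 0 (5703 of all 11498 genes did), a median of -0.072 on the log2 scale and fold changes of 0.806 to 0.991. The transporter Abca7 had 43.3, 40.3 and 39.7 CPM with LPS plus 3A2, and 47.2, 45.5 and 48.4 CPM with LPS, and with the corepressor Ncor1 it was 1 of 2 that lay below without overlap, as 6.46% of all genes did. None of the 7 reached an unadjusted p under 0.05, and the most abundant per length, Tspo, stood at 0.985-fold (0.860 to 1.13). Vldlr, Apoc1 and Apoc4 had 0 counts in all libraries.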

How the data were processed

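RNA was extracted, depleted of ribosomal RNA and made into stranded paired-end libraries read on a NovaSeq X, per the labels' protocols. The deposited values are raw counts of reads for each gene symbol in 6 libraries. HISAT2, edgeR and the build GRCh38 are named with no role or version, per the submitters' processing notes. That build is human while the symbols are mouse, so no coordinate was taken from it. The counting program, its strand setting and the annotation: not given in the sources used here. There were 5 unnamed columns, which were not used, and 0 entries without a gene name.

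Counts were filtered with filterByExpr, TMM-scaled and tested over all genes in edgeR 4.0.16 under R 4.3.3 (quasi-likelihood F test, robust, two-sided), LPS plus 3A2 against LPS, with Benjamini-Hochberg adjustment at 0.05. Biological variation came to a coefficient of 0.0768, and the standard error of a cholesterol gene's log2 fold change was 0.0598 to 0.410. Intervals are at the 95% level. DESeq2 1.42.0 and limma-voom (limma 3.58.1) were alternatives, beside other scalings, filters, a replicate block, a covariate and leaving out each library. Deviations used log2 CPM with a prior count of 2. Transcript lengths are GENCODE M21 principal transcripts. The test was tried on simulated counts. The labels state biological triplicates, and every pair of libraries in a group differed by more than sampling noise (chi-square per degree of freedom 3.33 to 22.0). Same-numbered libraries of the groups had deviations correlated at -0.0065, 0.032 and -0.16, and differently numbered ones at -0.16 to 0.16. These values gave no sign of pairing by number, but they cannot exclude it.

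The members and lists were chosen with earlier results of these data known. Library values are given for cholesterol genes at an unadjusted p under 0.05, with groups apart, or most abundant in their role, and for Srebf2, Hmgcs1, Abca1, Abcg1, Nr1h3, Apoe, Tm7sf2, Apoc2 and Ch25h, chosen after their values were seen. A further marker list is not reported here.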

Additional observations from a re-analysis of the deposited data

How the results depend on the processing

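No cholesterol gene was called under any alternative fit or threshold, and of 447 fold changes in alternative fits 423 kept their sign. Of the 24 that changed sign, 16 came from leaving out a library and 8 from a fit with mitochondrial mRNA as a covariate. With that covariate the log2 fold change was 0.0392 for Srebf2, 0.0214 for Mvk, 0.1262 for Pmvk, 0.0586 for Fdps, -0.0123 for Sc5d, 0.037 for Nr1h2, 0.0468 for Mylip and -0.0554 for Lpcat3. Without a library in turn, 13 genes crossed 0. Their log2 fold changes ran from -0.1692 to 0.0754 for Mvk, -0.2657 to 0.0669 for Pmvk, -0.0814 to 0.0123 for Fdps, -0.0831 to 0.0073 for Lss, -0.0223 to 0.2284 for Tm7sf2, -0.0296 to 0.1952 for Dhcr7 and -0.162 to 0.1136 for Stard4. They ran from -0.0062 to 0.0685 for Npc1, -0.0117 to 0.0588 for Npc2, -0.0853 to 0.0048 for Nr1h2, -0.0679 to 0.1606 for Abca1, -0.0803 to 0.0137 for Mylip and -0.0412 to 0.1696 for Lpcat3. Cholesterol genes at an unadjusted p under 0.05, 4 as reported, numbered 1 with DESeq2, 2 with the covariate, 3 with the replicate block and 1 to 6 without a library (2 without LPS plus 3A2 replicate 3, LPS replicate 1 or LPS replicate 2, and 1 without LPS replicate 3). Genes whose groups do not overlap, 7 as reported, numbered 7 to 16 without a library (16 without LPS plus 3A2 replicate 1, 11 without its replicate 2 and 13 without LPS replicate 1), where 2 libraries are set against 3. Any gene meets that split more easily than 3 against 3. The shares of all genes at these settings are not given for either count, so neither can be read as a result about cholesterol genes. The median log2 fold change of synthesis and uptake genes, 0.0373 as reported, ran from -0.0117 without LPS plus 3A2 replicate 2 to 0.0588 without LPS plus 3A2 replicate 1. That of efflux genes and LXR targets, -0.0258 as reported, ran from -0.0722 without LPS plus 3A2 replicate 2 to 0.0048 without replicate 3. It was 0.0219 with a minimum of 1 CPM in all libraries, which drops Nr1h3, 0.037 with the covariate, and 0.0298 with Npc1 and Npc2 counted among those genes. Over all genes the calls, 0 as reported, numbered 16 without a filter, 1 with the replicate block, 32 with the covariate and 0 to 25 without a library, most of them without LPS plus 3A2 replicate 2. The cause of these differences was not tested. Depth limits Nr1h3, Apoe, Tm7sf2, Apoc2 and Ch25h, and exon bases shared with Gm44805 on the same strand also limit Apoc2.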
